A study of Argiope bruennichi with 12 samples.

Results

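The 6 genes described here are those that the study of overwintering *Argiope bruennichi* spiderlings names as small heat shock or alpha-crystallin genes, out of 37459 genes listed in its count table. LOC129957165 and LOC129957118 are named protein lethal(2)essential for life-like, LOC129988413 small heat shock protein, LOC129957099 and LOC129981871 alpha-crystallin B chain-like, and LOC129984551 alpha-crystallin A chain-like. All 6 genes passed the filter on low counts, as did 14057 genes of the table. The study took these names from its contrasts of the warm regime with the moderate and the cold regimes, so that the genes were chosen by the counts of both contrasts, which are given below as a description, with no test. For these genes only the contrast of cold against moderate was tested. It shares its moderate pools with one choosing contrast and its cold pools with the other, so that neither arm is independent of the choice.

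RNA was sequenced from 12 pools of 15 spiderlings, the offspring of females from an Estonian population, which spent 3 months inside their egg sacs in climate cabinets. Warm pools (4) had days at 15°C with nights at -5°C, cold pools (4) days at 5°C with nights at -15°C, and moderate pools (4) days at 5°C with nights at -5°C. Warm and moderate therefore differed in the day temperature, and cold and moderate in the night temperature. Each regime ran in its own cabinet, so that regime and cabinet cannot be told apart, and the sources used here do not say which egg sacs entered a pool, so that p-values measure only the spread between these pools. Pools were whole spiderlings, in which fewer cells of a type and less RNA per cell cannot be told apart.

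Small heat shock proteins are chaperones that share an alpha-crystallin domain. They assemble into oligomers and bind proteins that are unfolding, without using ATP, and hold them until chaperones such as Hsp70, which do use ATP, refold them. Transcription of many of them is switched on by heat shock factor under heat and other stress, and in several insects their transcripts are also known to change with cold and with dormancy. Lethal(2)essential for life is a member of the family known from *Drosophila melanogaster*. The alpha-crystallin A and B chains are best known as structural proteins and chaperones of the vertebrate eye lens, and the B chain also from vertebrate muscle.

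Total counts per pool were between 10800714 and 16081111. The pool that stood apart in these genes was moderate replicate 4, in which the level of each of the 6 genes was the lowest of the moderate pools (32.4% of all genes tested) and below every cold pool (31.2%). The 6 genes together took 0.0111% to 0.0205% of all counts in the warm pools, 0.0409% to 0.0863% in the cold pools, and 0.0773%, 0.150% and 0.123% in moderate replicates 1, 2 and 3, but 0.0164% in moderate replicate 4. The fold changes of these genes against the moderate regime are therefore given with and without that pool. Why it stood apart was not tested.

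All 6 genes lay in short gene models of assembly qqArgBrue1.1, annotated as protein-coding, with spans between 882 and 1035 bp. Of 18361 protein-coding genes in the annotation, 6.62% had a span of at most 1035 bp, and the median span was 18053 bp. LOC129957118 (82089391 to 82090272) and LOC129957099 (82154232 to 82155142), a lethal(2)essential for life-like and an alpha-crystallin B chain-like gene, were separated by 64 kb of chromosome 11 with 0 genes annotated between them. LOC129957165 (54517678 to 54518615) lay 27.6 Mb away on the same chromosome. LOC129988413 was on chromosome 10 (81494363 to 81495307), LOC129981871 on chromosome 8 (59598098 to 59599079) and LOC129984551 on chromosome 9 (89477817 to 89478851).

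The alpha-crystallin A chain-like gene LOC129984551 had the widest range between regimes. Its normalized counts, which are counts scaled to a common library size by the TMM factors of edgeR, were 71.7, 63.5, 142 and 153 in warm replicates 1 to 4, 1621, 819.8, 993 and 1182 in cold replicates 1 to 4, and 1353, 3196, 3326 and 131 in moderate replicates 1 to 4. Every warm pool was below every cold pool, and moderate replicate 4 lay among the warm pools. The log2 fold change was -4.22 ± 0.71 (SE) for warm against moderate and -3.42 ± 0.69 for warm against cold. These folds correspond to levels 18.6 and 10.7 times lower in the warm regime. Without moderate replicate 4, the change for warm against moderate was -4.61 ± 0.38. With any 1 pool left out it ranged from -4.61 to -3.86.

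The alpha-crystallin B chain-like gene LOC129957099 came next in the size of its change. It had normalized counts of 462, 495, 662 and 551 in the warm pools, 1848, 1749.7, 4239 and 2034 in the cold pools, and 4033, 10042, 5256 and 420.4 in the moderate pools, in order of replicate. The warm pools did not overlap the cold pools, and moderate replicate 4 was below every warm pool. The log2 fold change was -3.19 ± 0.63 (SE) for warm against moderate, -3.57 ± 0.35 without moderate replicate 4 and -2.58 ± 0.59 without moderate replicate 2, and -2.18 ± 0.61 for warm against cold. LOC129981871, which carries the same name, varied less. Its normalized counts were 113, 121, 171 and 155 in the warm pools, 231, 242, 351 and 250.2 in the cold pools, and 325, 891, 456 and 168 in the moderate pools. Again every warm pool was below every cold pool, and moderate replicate 4 lay within the warm range. The log2 fold change was -1.71 ± 0.38 for warm against moderate, -1.99 ± 0.29 without moderate replicate 4 and -1.18 ± 0.28 without moderate replicate 2, and -0.94 ± 0.37 for warm against cold.

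**Figure D1:**
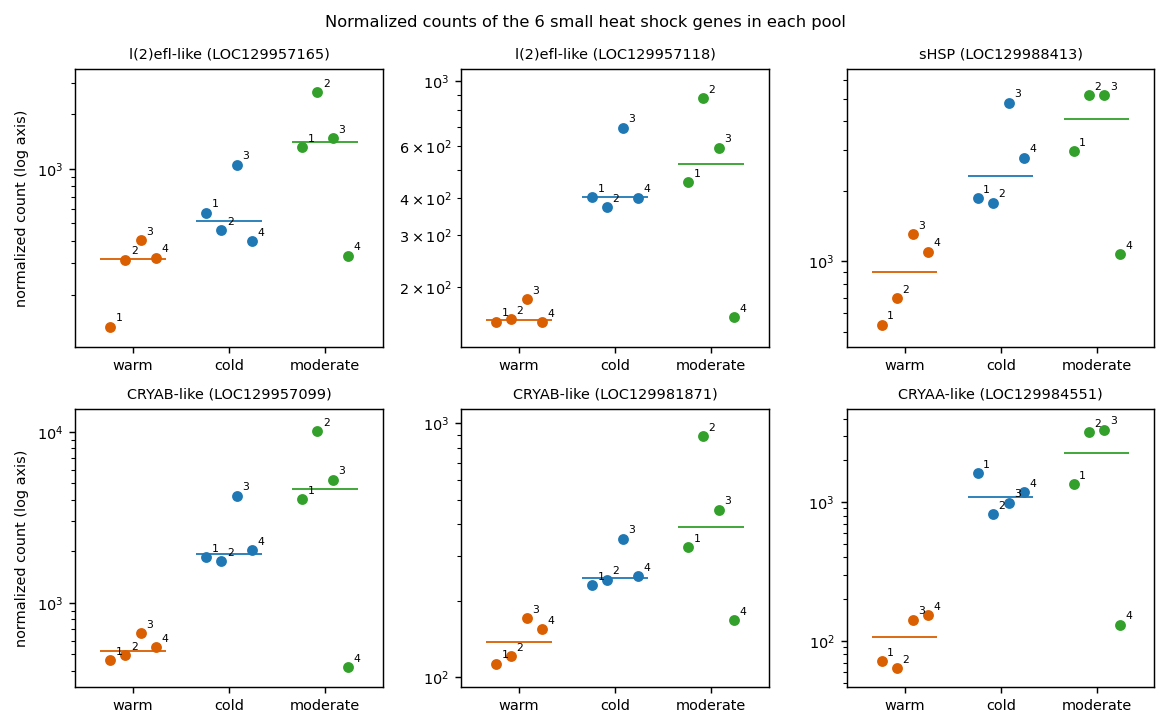
Normalized count (log axis) of each of the 6 genes in every pool of the warm, cold and moderate regimes, with the replicate number beside each point and a line at the median of the 4 pools. For LOC129984551 the warm pools sit between 63.5 and 153 and the cold pools between 819.8 and 1621, and moderate replicate 4 (131) sits among the warm pools.

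The gene named small heat shock protein, LOC129988413, was among the most strongly expressed of the 6. Normalized counts were 535, 697, 1312 and 1100.2 in the warm pools, 1863, 1787, 4802 and 2786 in the cold pools, and 2971, 5162, 5183 and 1073 in the moderate pools. All warm pools were below all cold pools, although warm replicate 3 (1312) and cold replicate 2 (1787) were close, and moderate replicate 4 lay among the warm pools. Its log2 fold change was -1.98 ± 0.46 (SE) for warm against moderate, -2.29 ± 0.37 without moderate replicate 4, and -1.62 ± 0.45 for warm against cold.

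The lethal(2)essential for life-like genes differed from each other in how the cold pools were placed. LOC129957118 had 153, 156, 182 and 152 normalized counts in the warm pools, 404, 373, 695 and 402.5 in the cold pools, and 454, 874, 594 and 158 in the moderate pools. The cold pools lay well above the warm pools and overlapped the moderate pools. LOC129957165 had 133, 314, 403 and 323 in the warm pools, 570.2, 456, 1053 and 399 in the cold pools, and 1320.0, 2662, 1481 and 330.2 in the moderate pools. Here warm and cold overlapped, since warm replicate 3 (403) exceeded cold replicate 4 (399), and every cold pool was below moderate replicates 1 to 3. For LOC129957118 the log2 fold change was -1.69 ± 0.38 (SE) for warm against moderate and -1.54 ± 0.37 for warm against cold. For LOC129957165 the change was -2.30 ± 0.51 for warm against moderate and -1.08 ± 0.50 for warm against cold. Without moderate replicate 4 the changes for warm against moderate were -1.99 ± 0.24 for LOC129957118 and -2.63 ± 0.39 for LOC129957165. Without moderate replicate 2 they were -1.33 ± 0.35 and -1.83 ± 0.48.

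Across the contrasts that chose the genes, the median log2 fold change of the 6 genes was -2.14 for warm against moderate, beside -0.0035 for all 14057 genes, and -1.58 for warm against cold, beside -0.0093. These values, and the counts of pools that follow, describe the choice of the genes and nothing is read from them. Every warm pool was below every cold pool for 5 of 6 genes (13.8% of all genes), below moderate replicates 1, 2 and 3 for 6 of 6 (19.5%), and below all 4 moderate pools for 0 of 6 (5.34%). Every cold pool was below moderate replicates 1 to 3 for 1 of 6 (10.4%).

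**Figure D2:**
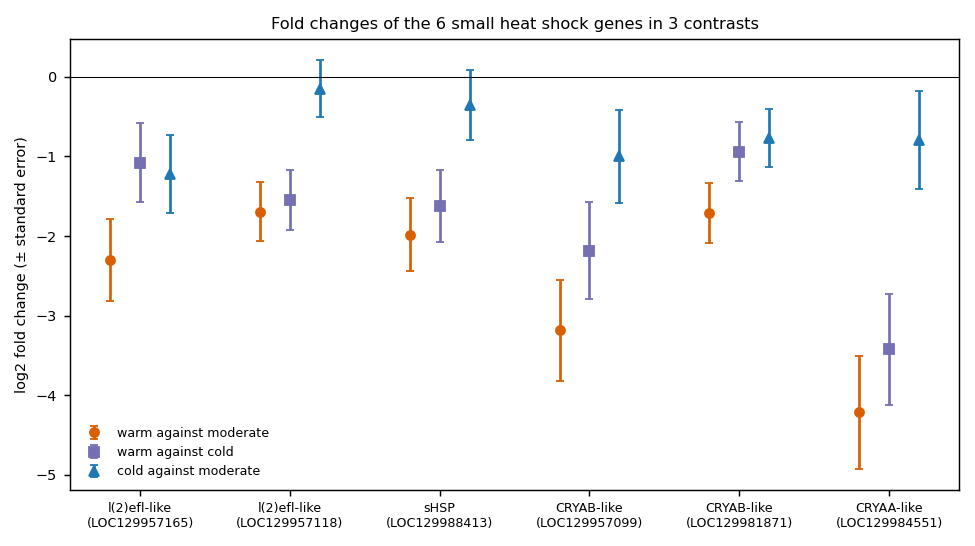
Log2 fold change with its standard error for each gene in warm against moderate, warm against cold and cold against moderate, from one model of all 12 pools. The values for cold against moderate lie between -1.22 and -0.15, and those for warm against moderate between -4.22 and -1.69.

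Cold against moderate compares nights at -15°C with nights at -5°C, with the same days and so with a wider daily swing in the cold regime. The cold regime also ran in a cabinet of another make than the moderate regime, so that night temperature and cabinet cannot be told apart. None of the 6 genes passed the test. All 6 were lower in the cold regime on the mean (51.6% of all genes were), with a median log2 fold change of -0.78, beside -0.0099 for all genes. The median was -1.12 without moderate replicate 4 and -0.32 without moderate replicate 2. Genes chosen as lower in warm than in moderate pools tend to be high in these moderate pools, which by itself favours lower values in cold against moderate. The choice by warm against cold, for which the study lists LOC129988413 and LOC129984551, favours high cold pools, and so the other direction. LOC129957165 and LOC129981871 are listed for warm against moderate only, so that their choice favours lower values in cold against moderate. For the 6 genes as a set the net effect of the choice is not known, so that the shared direction is a description. LOC129957165 had the largest change, -1.22 ± 0.49 (SE), with an adjusted p of 0.358 from edgeR's quasi-likelihood test, and LOC129957099 followed with -1.0002 ± 0.59 (adjusted p = 0.524). LOC129984551 had -0.79 ± 0.61 (adjusted p = 0.633) and LOC129981871 -0.77 ± 0.37 (adjusted p = 0.425). The smallest were those of LOC129988413, -0.36 ± 0.44 (adjusted p = 0.781), and LOC129957118, -0.15 ± 0.36 (adjusted p = 0.902). By edgeR, 0 of 6 genes were called, beside 0.0142% of all genes, and 1 of 6 (LOC129957165) had an unadjusted p under 0.05, beside 12.0% of all genes. DESeq2's Wald test called 0 of 6, and voom in limma, with weights for the samples, called LOC129957165 (-1.26 ± 0.33, adjusted p = 0.0418).

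The calls depended on single moderate pools. Moderate replicate 4 was singled out for its low level in these same genes. Leaving it out raises their moderate mean and narrows their moderate spread, and the moderate pools that remain also took part in the choice of the genes. The calls without it are therefore a description. Without moderate replicate 4, edgeR called LOC129957165 (-1.56 ± 0.38, adjusted p = 0.0381) and LOC129957099 (-1.38 ± 0.33, adjusted p = 0.0355) as lower in the cold than in the moderate regime, 2 of 6 genes beside 3.04% of the 14181 genes tested. The other genes did not pass without that pool, with adjusted p between 0.0575 (LOC129981871, -1.05 ± 0.29) and 0.301 (LOC129988413, -0.66 ± 0.36). With moderate replicate 2 left out as well, 0 of 6 were called again, with -1.18 ± 0.38 for LOC129957165 (adjusted p = 0.124) and -0.91 ± 0.30 for LOC129957099 (adjusted p = 0.128). Without moderate replicate 2 alone, the pool with the highest level of 4 of the 6 genes, 0 of 6 were called and LOC129957118 turned to 0.22 ± 0.34 (adjusted p = 0.883). Over all alternatives the adjusted p ranged from 0.0381 to 0.617 for LOC129957165, from 0.0355 to 0.872 for LOC129957099 and from 0.281 to 0.976 for LOC129957118.

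The spread between pools of one regime was wide. In the moderate regime the SD of log2 CPM was between 1.00 and 2.18 for the 6 genes, beside a median of 0.34 over all genes. Over moderate replicates 1 to 3 it was between 0.46 and 0.74, beside a median of 0.27. It was between 0.12 and 0.70 in the warm regime and between 0.27 and 0.66 in the cold regime, where the medians over all genes were both 0.18. The narrowest was LOC129957118 in the warm regime, whose 4 pools lay between 152 and 182 normalized counts. Warm replicate 3 was the highest warm pool for 5 of 6 genes (3504 of all 14057 genes), cold replicate 3 the highest cold pool for 5 of 6 (3656 of all genes) and moderate replicate 2 the highest moderate pool for 4 of 6 (4753 of all genes). The lowest pool was spread over 3 replicates in the warm and in the cold regime. The exception in the cold regime was LOC129984551, which was highest in cold replicate 1 (1621) and had 993 normalized counts in cold replicate 3. Moderate replicate 4 lay within the range of the warm pools for 5 of 6 genes, as it did for 58.7% of all genes, and was the lowest moderate pool for 6 of 6 (32.4% of all genes). The mean of the other moderate pools was 3.32 (LOC129981871) to 20.1 (LOC129984551) times its level.

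**Figure D3:**
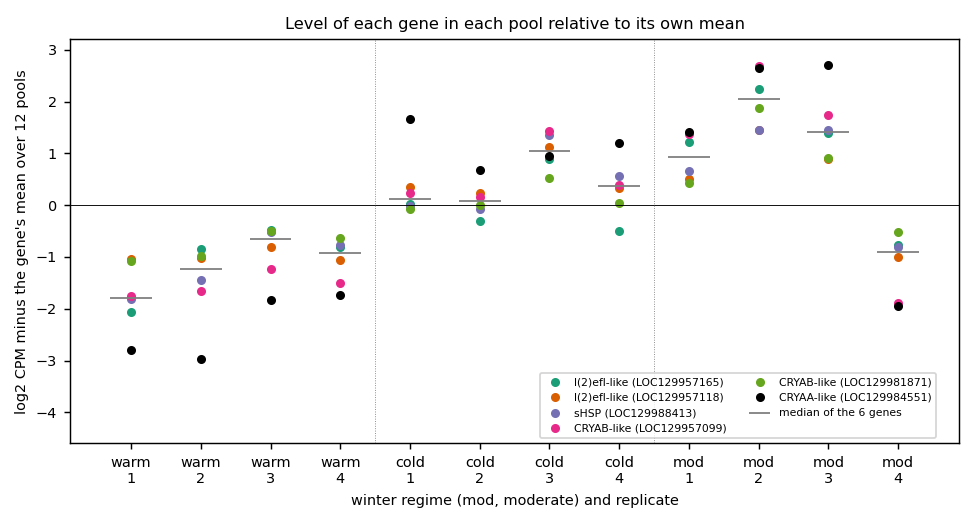
Log2 CPM of each gene in each pool minus that gene's mean over the 12 pools, with a bar at the median of the 6 genes. The medians run from -1.78 to -0.66 in the warm pools and from 0.08 to 1.04 in the cold pools. They are 0.94, 2.05 and 1.42 in moderate replicates 1 to 3 and -0.91 in moderate replicate 4.

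Levels of the genes were compared with each other per kb of gene span, since exon lengths were not used here. LOC129988413 averaged 964 ± 378 normalized counts per kb in the warm, 2973 ± 1485 in the cold and 3806 ± 2092 in the moderate regime (SD, n = 4 each), and LOC129957099 averaged 596 ± 96.3 in the warm, 2709 ± 1303 in the cold and 5420.0 ± 4362 in the moderate regime. Over moderate replicates 1 to 3 the means were 4697 ± 1345 for LOC129988413 and 7073 ± 3486 for LOC129957099 (SD, n = 3). These genes were above the other 4 in all 12 pools. LOC129988413 was the higher of the pair in all 4 warm pools, in 2 cold pools and in 1 moderate pool, so that the order between them was not fixed outside the warm regime. LOC129981871 was below both lethal(2)essential for life-like genes in all 12 pools, at 143 ± 27.9 in the warm, 274 ± 56.6 in the cold and 468 ± 316 in the moderate regime. The place of LOC129984551 moved with the regime. In the 4 warm pools and in moderate replicate 4 it was below LOC129981871, and so the lowest of the 6, at 104 ± 44.9 per kb in the warm regime. In the 4 cold pools it was above LOC129981871 and LOC129957118, at 1115 ± 333, and in 3 of them above LOC129957165 as well.

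**Figure D4:**
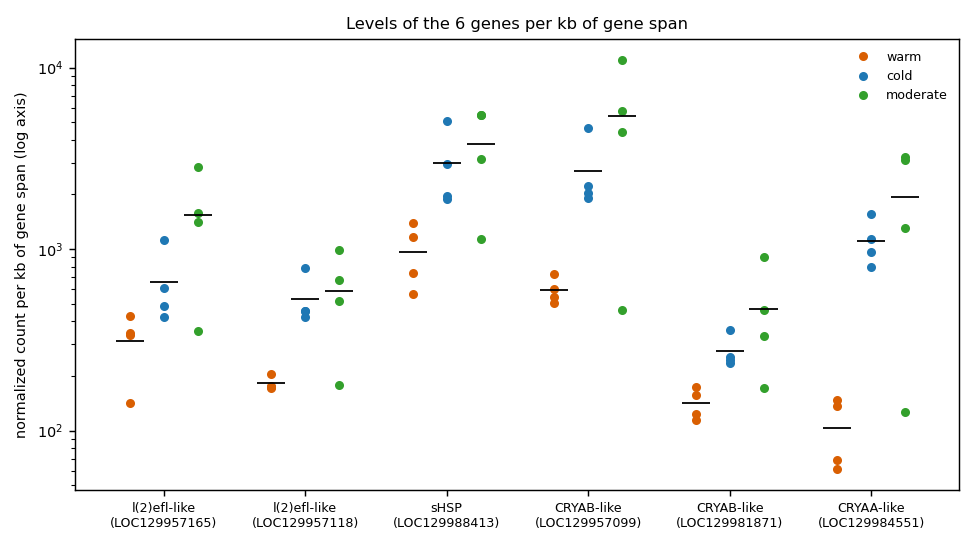
Normalized count per kb of gene span (log axis) of the 6 genes, with 1 point for each pool of the warm, cold and moderate regimes and a bar at the mean of 4 pools. LOC129984551 is the lowest of the genes in the warm regime (104 ± 44.9, SD) and above LOC129957118 and LOC129981871 in the cold regime (1115 ± 333).

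For the neighbours LOC129957099 and LOC129957118, the ratio of counts, LOC129957099 over LOC129957118, was 3.02, 3.18, 3.64 and 3.63 in the warm pools, 4.57, 4.69, 6.10 and 5.05 in the cold pools, and 8.88, 11.5, 8.85 and 2.66 in the moderate pools. The warm and cold pools did not overlap in this ratio, and moderate replicate 4 was below every warm pool. Warm against cold was one of the contrasts from which the study selected genes of this set, so that this is a description. No share over other pairs of genes was taken, here or for the pairs that follow. For cold against moderate, the log2 ratios of all 15 pairs of genes were compared by two-sided exact permutation tests, for which the smallest p is 0.0286. The log2 ratio of LOC129957118 over LOC129957099 averaged -2.34 ± 0.19 in the cold and -2.80 ± 0.95 in the moderate regime (SD, n = 4 each, exact permutation p = 0.400, adjusted 0.667). That p was reached by LOC129957165 over LOC129957118, whose log2 ratio averaged 0.34 ± 0.27 in the cold and 1.38 ± 0.25 in the moderate regime (SD, n = 4 each, exact permutation p = 0.0286), and by LOC129957118 over LOC129981871, with 0.77 ± 0.16 and 0.19 ± 0.29 (exact permutation p = 0.0286). In both pairs the cold and moderate pools did not overlap, and the cold minus moderate differences were -1.04 and 0.58, or -1.14 and 0.49 without moderate replicate 4. The 15 pairs share the same few genes. The moderate pools, and for some genes the cold pools, took part in the choice of the genes. The separation in these pairs is therefore a description too. After adjustment over the 15 pairs the lowest p was 0.214. With 4 pools a regime an adjusted p under 0.05 would need most pairs to reach the smallest p, so that the adjusted values say little either way.

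Likeness of pattern was measured as the root mean square difference, over the 12 pools, between centred log2 CPM values. Against the median of the other members, the difference was 0.37 for LOC129988413, 0.43 for LOC129957165, 0.46 for LOC129957118, 0.49 for LOC129981871 and 0.59 for LOC129957099, and it was 1.14 for LOC129984551. Without moderate replicate 4 these values were between 0.38 and 0.52, and 1.13 for LOC129984551. The measure is not scaled, so that a wider range of levels counts as a difference. The gene nearest to LOC129984551 was LOC129957099 (0.78), the other gene with a wide range, and the closest pair was LOC129957118 and LOC129981871 (0.33). Outside the members, the genes nearest to their median profile were LOC129968691 (0.41), LOC129961814 (0.41, annotated as lncRNA), LOC129959672 (0.43), LOC129959446 (0.46) and LOC129962779 (0.47), for which the sources used here give no product name. Without moderate replicate 4, 4 of these 5 genes were again among the nearest 5. With the mean of the members in place of their median, only 1 was, so that the list depends on the summary used. LOC129961814 had low counts, with means of 6.00 in the warm, 15.5 in the cold and 21.5 in the moderate regime. LOC129968691 averaged 36.7 ± 8.05 normalized counts in the warm, 66.3 ± 4.99 in the cold and 158 ± 107 in the moderate regime (SD, n = 4 each), with 40.6 in moderate replicate 4. All pools of a regime share their cabinet, and the likeness carries no test.

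Heat shock protein 70 B2 (LOC129958558), a chaperone of the ATP-dependent Hsp70 family that the study names beside these genes, had 757, 475, 501 and 304 normalized counts in the warm pools, 2891, 894, 2679 and 937 in the cold pools, and 4799.6, 7712, 3357 and 239 in the moderate pools. It shared the low level in moderate replicate 4, and among the cold pools replicates 1 and 3 were high. Cold replicate 3 was the highest cold pool for 5 of the members, and cold replicate 1 for LOC129984551. Heat shock protein 70 B2 differed from the members' median profile by 0.83, at place 600 of 14051 genes. The measure is not scaled, and the member LOC129984551 differed more from the median of the other members (1.14). The place therefore does not tell a wider range of levels from an unlike pattern.

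Genes within 50 kb of the 6 genes were taken from the annotation after the values had been seen. Of 21 such genes tested, edgeR called 0 for cold against moderate, 1 for warm against moderate (4.08% of all genes) and 0 for warm against cold (5.47%). At an unadjusted p under 0.05 there were 2 for cold against moderate (12.0% of all genes), 7 for warm against moderate (29.6%) and 2 for warm against cold (25.4%). Their median log2 fold change was -0.07 for cold against moderate, 0.02 for warm against moderate and -0.05 for warm against cold. The gene called was LOC129980849, 29.3 kb from LOC129981871, with -0.78 ± 0.19 for warm against moderate (adjusted p = 0.0460 by edgeR), and -0.98 ± 0.11 without moderate replicate 4 (adjusted p = 0.000165). The call was lost when any of the other 11 pools was left out (adjusted p 0.0603 to 0.112), and the adjusted p reached 0.130 over all alternatives. Over all genes, leaving out any of these 11 pools left 0 to 6 genes called in warm against moderate by edgeR. The neighbour nearest to the members' profile was LOC129957124, 7.0 kb from LOC129957165 and 867 bp long, which had 983, 1689, 1813 and 1787 normalized counts in the warm pools, 1740.4, 1826, 3749.9 and 1714 in the cold pools, and 3056, 6979.8, 2920.3 and 1506 in the moderate pools. Moderate replicate 2 was its highest moderate pool, as for 4 of 6 members (4753 of all 14057 genes). Cold replicate 3 was its highest cold pool, as for 5 of 6 (3656 of all genes). Moderate replicate 4 was its lowest moderate pool, as for 6 of 6 (32.4% of all genes). The gene was picked for its likeness to the members over these pools, so that these matches and its fold changes are part of the choice. Its fold changes are given as a description, with no test. The log2 fold change of LOC129957124 was -1.20 ± 0.39 for warm against moderate. It was -1.46 ± 0.35 without moderate replicate 4 but -0.67 ± 0.32 without moderate replicate 2. For warm against cold it was -0.53 ± 0.39. Other short genes near LOC129957165 were less alike. LOC129957176 (863 bp) and LOC129957196 (941 bp) were at places 1822 and 11359 in likeness, beside place 28 for LOC129957124. For warm against cold their log2 fold changes were 0.27 and 0.68 (adjusted p = 0.661 and 0.398 by edgeR). For warm against moderate they were -0.51 and 0.25 (adjusted p = 0.333 and 0.756).

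**Figure D5:**
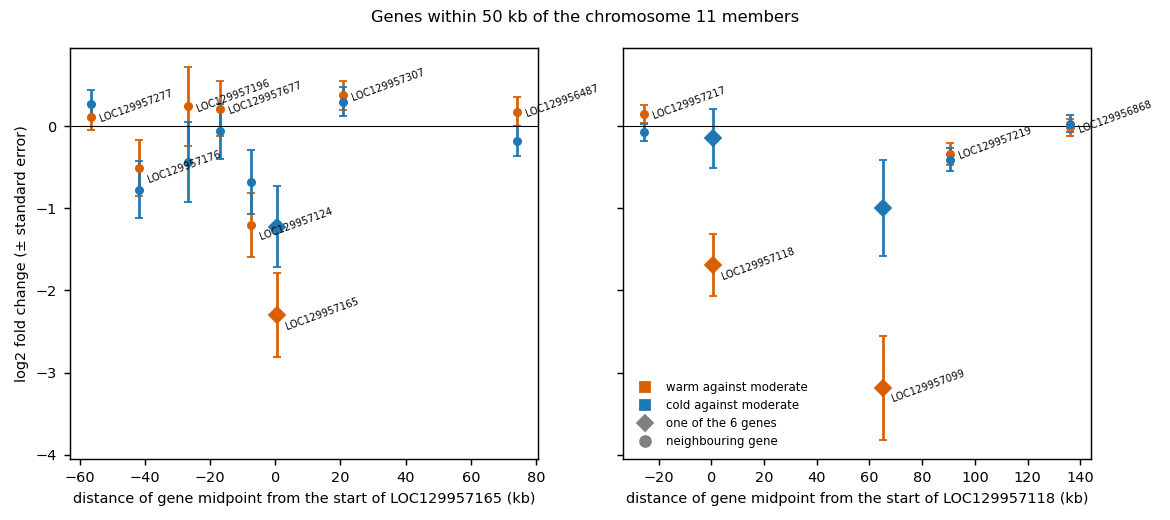
Log2 fold change with its standard error for warm against moderate and cold against moderate of genes within 50 kb of the members on chromosome 11, by distance of the gene's midpoint from the start of LOC129957165 (left) or LOC129957118 (right). Diamonds are members and circles are neighbours. LOC129957124 (-1.20 for warm against moderate) lies next to LOC129957165 (-2.30).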

How the data were processed

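RNA from 12 pools was depleted of ribosomal RNA and made into directional libraries. According to the submitters' processing notes and the study's methods, the authors mapped reads with STAR 2.7.11a and counted them per gene with featureCounts (Subread 2.0.6). The authors deposited these raw counts, without normalization. How strand and multi-mapping reads were handled in counting is not given in the sources used here. Reads that match several genes may have been left out or shared between genes. Whether any of the genes described here are alike enough for this to matter was not examined.

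Of 37459 genes listed, 2 had no values. All 12 sample columns were used and 0 were left out. Groups and replicate numbers come from the labels. Counts were filtered with filterByExpr (minimum count 10), normalized by TMM and tested with edgeR 4.0.16 (glmQLFit and glmQLFTest, R 4.3.3) in one model of all pools with regime as the factor, with Benjamini-Hochberg adjustment over all genes tested and calls at an adjusted p under 0.05. Log2 CPM used a prior count of 2. Standard errors were derived from the F statistic. Functions were tested on simulated data. Alternatives were the size factors of DESeq2, upper-quartile normalization, other filters on low counts (none, or a mean of 1 CPM), DESeq2 1.42.0, limma 3.58.1 (voom with sample weights), only the regimes compared, the replicate number as a block, and each pool left out. Replicates differed by a chi-square per degree of freedom of 12.3 to 73.5, above counting noise, so no pool was counted as a repeat of another, and precision was set by the number of pools rather than by depth.

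The members and lists were chosen with earlier results of these data known. Named are the 6 members, heat shock protein 70 B2, the 5 genes nearest to the members' median profile and genes annotated between close members. The neighbours LOC129957124, LOC129980849, LOC129957176 and LOC129957196 were named after their values were seen. Gene names are those the study gives, and positions come from the RefSeq annotation of assembly qqArgBrue1.1. Product names, proteins and promoters were not used here, so the lists of other small heat shock and chaperone genes, markers of tissues, and comparisons of sequences were not made.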

Additional observations from a re-analysis of the deposited data

Results flagged for a closer look

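In 4 of the 18 sets of 4 pools (6 genes in 3 regimes) the highest pool stood apart from the other pools of its regime, by the gap to the nearest pool divided by the range. Chance gives about 1 in 20 such sets for normally distributed values, which counts on a linear scale need not be, so that this share is a rough guide. The genes also share their pools, so that these are not separate events. In the cold regime this was cold replicate 3 for LOC129957099, with 4239 normalized counts, for LOC129957118, with 695, and for LOC129981871, with 351. In the warm regime it was warm replicate 3 for LOC129957118, with 182. The cause of these gaps was not tested. The rule flagged no moderate pool, moderate replicate 4 included.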

How the results depend on the processing

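For the log2 fold changes of the 6 genes under the alternatives, 126 of 126 values kept their direction for warm against cold and 126 of 126 for warm against moderate. For cold against moderate 125 of 126 did, and the value that turned was LOC129957118 without moderate replicate 2 (0.22), whose range with one pool left out was -0.45 to 0.22. For warm against moderate, LOC129981871 moved beyond its spread without moderate replicate 2 (-1.18). With one pool left out, the median of the 6 genes ranged from -2.46 to -1.80 for warm against moderate and from -1.73 to -1.26 for warm against cold. The number of members called in cold against moderate was 0, with 1 by limma's voom method and 0 to 2 with one pool left out (2 without moderate replicate 4).

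Counts of all genes called moved more. For cold against moderate the count was 2 (1 higher and 1 lower in cold), with 5 by upper-quartile normalization (4 higher and 1 lower), 5 without a filter on low counts, 186 by DESeq2, 804 by limma's voom method, 0 with only the regimes compared, and 0 to 650 with one pool left out (650 without moderate replicate 4). For warm against moderate it was 573 (192 higher and 381 lower in warm), with 95 by upper-quartile normalization (46 higher and 49 lower), 2209 by DESeq2, 5096 by limma's voom method, 0 with only the regimes compared, and 0 to 4419 with one pool left out (4419 without moderate replicate 4, and 0 to 6 without any of the other 11 pools). For warm against cold it was 769, with 1715 by DESeq2, 3727 by limma's voom method, 3272 with only the regimes compared, and 115 to 2237 with one pool left out. With moderate replicates 2 and 4 both left out, an alternative chosen after seeing the data, the counts were 412, 4091 and 3497, and 0 members were called in cold against moderate. The cause of these shifts was not tested.

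With the replicate number as a block, 0 genes were called for cold against moderate, 14 for warm against moderate and 472 for warm against cold. The labels give the regimes the same numbers but state no pairing, and deviations of same-numbered pools correlated between -0.07 and 0.12, over 0.1 in 1 of 12 pairs, so the numbers were not taken to pair pools. Taking the mean of the members in place of their median kept 1 of the 5 genes nearest in pattern. With 4 pools in each regime and 1 pool apart in the moderate regime, the spread between pools limits the tests more than the depth does. The planned lists of other small heat shock and chaperone genes, promoter motifs and protein comparison were not run, since product names and sequences were not used here.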
